A study of Gallus gallus with 60 samples.

Results

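Connexins are the proteins that build gap junctions, the channels through which neighbouring cells exchange ions and small molecules. In the mammalian inner ear they join supporting cells into networks, while hair cells lack them, and the networks are thought to carry potassium and signalling molecules away from and around the hair cells. GJB6 encodes one of the main connexins of cochlear supporting cells, and mutations of human GJB6 cause hearing loss. GJA1 encodes the most widely distributed connexin of vertebrate tissues, found in epithelia, glia, heart muscle and connective tissue cells.

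The connexin genes were followed in chicken (Gallus gallus) utricles, vestibular organs of the inner ear in which supporting cells give rise to new hair cells after the old ones are lost. The members were the rows of the expression table named GJB6 and GJA1, together with each other row with a connexin gene name and at least 1 RPKM in at least 2 libraries. Of 17684 rows, 9 carried a connexin name and 5 met this rule, namely GJB6, GJA1, GJA3, GJB1 and GJC1. Names that did not reach that level included GJA4, GJA5 and GJD2. The table names no unit, and its values were read as RPKM (read numbers divided by transcript length and by library depth). This was inferred because the low values of 34.7% of the rows checked step accordingly. No such step was found for the 5 members. RPKM adjusts for transcript length, so levels of different genes can be set side by side if that reading holds.

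Treated utricles were exposed after dissection to streptomycin, which kills hair cells, and then allowed recovery. The labelled exposure was 24 h. Control utricles carry the label control at the same times, and their handling is not described further. Both groups were sampled at 0, 24, 48, 54, 60, 66, 72, 96, 120, 144 and 168 h, with 4 samples per group at 24 h, 3 at 72, 96, 120 and 168 h and 2 at the other times. Where the clock starts is not in the labels, nor is the age of the birds or how many birds or utricles make up a sample. The p-values therefore measure the spread between these samples, which may be technical in part. The summed level of 19 tested hair cell markers was 398 and 305 RPKM in the 0 h treated samples and 1959.8 and 2252 RPKM in the 0 h control samples, so the treated group was already apart at 0 h.

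The 60 libraries held 1486991 to 40331879 alignments (median 21154441), and 7 of them, 5 at 24 or 168 h, had under 5000000. One read per kilobase of transcript was worth 0.672 RPKM in the shallowest library and 0.0473 RPKM at the median depth, so values near or below 1 RPKM were coarse. All 19 of these markers fell over the 11 times, with a median log2 difference of -1.78, treated minus control, where 12.5% of all rows were lower. At 96 to 168 h 14 of the 19 were lower (median -1.28), where 7.11% of all rows were lower. Here rose and fell mean higher and lower in treated than in control utricles, unless a course over time is described. OTOF, needed for transmitter release by hair cells, had a median of 49.9 RPKM in treated utricles and 270.2 RPKM in control utricles (log2 difference -2.39 ± 0.09 SE, adjusted p = 3.43e-23). The supporting cell markers SOX2 and JAG1 had medians of 187 and 197 RPKM in treated utricles and 188 and 172 RPKM in control utricles, so the labelled tissue carried markers of its sensory epithelium in both groups. These are bulk samples, in which more cells of a type and more RNA per cell cannot be told apart.

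GJB6 was the most abundant connexin row and the one with the largest rise among the 5 members. It rose 2.33-fold in treated utricles over the 11 times (log2 difference 1.22 ± 0.15 SE, adjusted p = 3.38e-08), and the difference was near 0 at 0 h and about 1 or more on the log2 scale at each later time. GJC1, a connexin at low levels here, also rose (0.45 ± 0.11, adjusted p = 0.0014). GJA1 was lower in treated utricles at 48 to 72 h and higher, short of the threshold, at 96 to 168 h. Over the 11 times 2 of the 5 members rose and 0 fell. In the same comparison 31.1% of the 13862 rows tested were called, 18.5% higher and 12.5% lower, so a rise was in itself common. Trimmed-mean scaling of the samples gave 1946 rows higher and 2095 lower, against 2570 higher and 1737 lower for the values as deposited, and left the GJB6 and GJC1 calls in place. GJB6 had the 41st largest log2 difference of the 13862.

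The GJB6 values were similar in both groups at 0 h and mostly apart from 24 h on. At 0 h the treated samples had 207 and 205 RPKM and the control samples 213 and 185 RPKM. At 24 h the treated samples had 578, 1013, 616 and 542 RPKM, against 287, 459, 256 and 237 RPKM in the control samples. Each treated sample of 24 h was thus above every control sample, and treated replicate 2 stood well above the other treated samples.

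At 48 h the treated samples had 984 and 552 RPKM and the control samples 569 and 241 RPKM. The groups overlapped at this time, since control replicate 1 reached the level of treated replicate 2. At 54 h the treated samples had 556 and 444 RPKM and the control samples 238 and 141 RPKM. At 60 h the values were 665 and 666 RPKM in treated samples and 231 and 215 RPKM in control samples. The treated values were about alike at 60 h, and the groups did not overlap at either time.

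At 66 h GJB6 had 635 and 457 RPKM in treated samples and 244 and 128 RPKM in control samples. At 72 h it had 819, 281 and 527 RPKM in treated samples and 284, 118 and 238 RPKM in control samples. Treated replicate 2, which lay among the controls at 72 h, shared its number with the lowest control. At 96 h the treated samples had 493, 853 and 542 RPKM and the control samples 254, 214 and 130 RPKM. At 66 and 96 h all treated samples lay above all controls.

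From 120 h the levels were lower in both groups. Treated samples had 226, 575 and 309 RPKM at 120 h, against 100.5, 225 and 145 RPKM in control samples. The 144 h values were 277 and 241 RPKM in treated samples and 117 and 145 RPKM in control samples. At 168 h the treated samples had 420, 192 and 311 RPKM and the control samples 241, 125 and 41.3 RPKM. All treated samples lay above all controls at 120 and 144 h, narrowly so at 120 h, while at 168 h the groups overlapped.

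**Figure D1:**
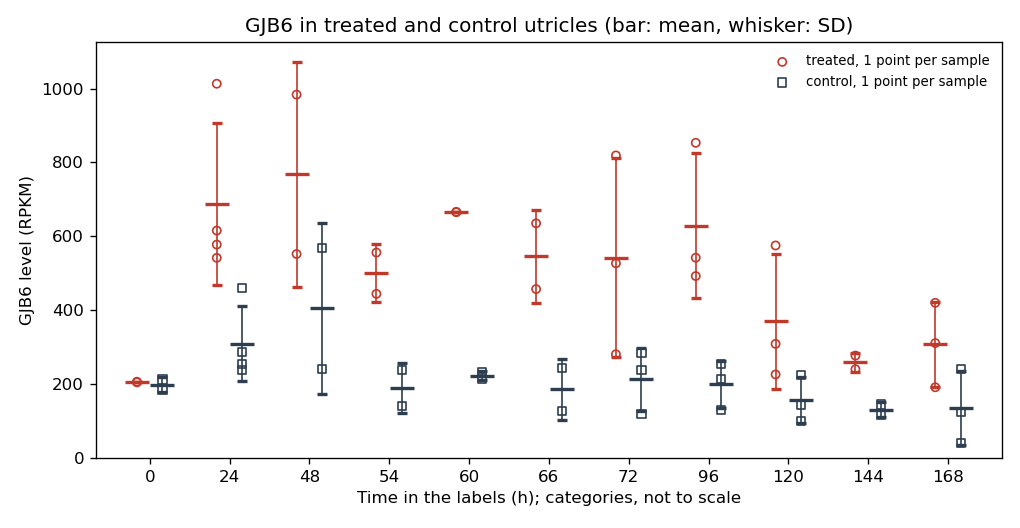
GJB6 level in RPKM at each of the 11 times (treated left of control; each point 1 sample, bars the mean, whiskers the SD). The groups lie together at 0 h, near 200 RPKM, and all treated samples lie above all control samples at 7 of the 11 times. Of these times, 54, 60, 66 and 144 h have only 2 samples a group. The share of all rows that separate in this way was not counted, so the count is a description of GJB6 alone.

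Sample numbers run through both groups, and samples with the same number mostly deviated together, so each treated sample was also set against the control of its number. GJB6 was higher in the treated sample of 27 of 28 pairs, with a ratio of 0.971 to 7.54 and a median of 2.31. The single pair without a rise was replicate 1 of 0 h, and the highest ratio was replicate 3 of 168 h, whose control had the lowest GJB6 value of the series. All 11 pairs of 48 to 72 h and all 11 pairs of 96 to 168 h were higher in the treated sample.

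By window, the GJB6 log2 difference was 0.60 ± 0.34 at 0 and 24 h (adjusted p = 0.277), where 12.8% of rows were called, 6.77% higher and 5.98% lower. The split in this window moved to 511 higher and 1010 lower under trimmed-mean scaling and to 605 higher and 869 lower under quantile normalization, against 939 higher and 829 lower as deposited. With the sample number as a block the GJB6 difference had an adjusted p of 0.0376, in a fit that called 3201 rows in this window. GJB6 was higher in treated than in control utricles at 48 to 72 h (1.38 ± 0.24, adjusted p = 2.56e-05), where 19.3% of rows were called, 9.13% higher and 10.2% lower. It was likewise higher than in control utricles at 96 to 168 h (1.32 ± 0.24, adjusted p = 0.000111), where 16.8% of rows were called, 9.65% higher and 7.11% lower.

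At single times, with 2 to 4 samples a group, GJB6 passed the test at 2 of 11 times. The log2 difference was 1.15 ± 0.40 at 24 h (adjusted p = 0.0474; 12.9% of rows called) and 1.67 ± 0.46 at 96 h (adjusted p = 0.0208; 5.14% of rows called). The 24 h call was lost when any 1 of the 8 samples other than control replicate 2 was left out, with log2 differences of 0.95 to 1.25. It was also lost under trimmed-mean scaling (1.01, adjusted p = 0.0994), with no filter (0.0663), quantile normalization (0.0564) or no trend (0.0509), and without libraries under 5000000 alignments (adjusted p = 0.059). That of 96 h was lost without control replicate 3 (1.39, adjusted p = 0.186) or without treated replicate 2 (1.43, adjusted p = 0.13). With the sample number as a block GJB6 was called at 8 times, all but 0, 48 and 144 h. Adjusted p-values of these calls ran from 0.000285 at 96 h to 0.0129 at 54 h. The fit with the block called 3302 of all rows at 24 h, 615 at 54 h, 1250 at 60 h and 660 at 66 h. It called 959 rows at 72 h, 1467 at 96 h, 920 at 120 h and 791 at 168 h. Each of these counts was higher than without the block.

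The remaining single-time GJB6 differences, short of the threshold without the block, were 0.05 ± 0.56 at 0 h, 0.99 ± 0.56 at 48 h, 1.44 ± 0.56 at 54 h and 1.57 ± 0.56 at 60 h. They were 1.61 ± 0.56 at 66 h, 1.31 ± 0.46 at 72 h, 1.2 ± 0.46 at 120 h, 0.98 ± 0.56 at 144 h and 1.44 ± 0.46 at 168 h. The share of rows called at these times was 2.56% at 0 h, 3.38% at 48 h, 2.59% at 54 h, 4.2% at 60 h and 2.85% at 66 h. It was 4.3% at 72 h, 2.66% at 120 h, 0.519% at 144 h and 1.41% at 168 h. Few rows passed at these times, whether 2 or 3 samples made up a group. The GJB6 differences of 54 to 66 h, which missed the threshold, exceeded that of 24 h.

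Whether the GJB6 difference itself varied between times was tested with an F test, which gave F = 0.70 (adjusted p = 1, and 0.356 with the block). Of all rows 1.48% passed this test. The 0 h value thus rests on 2 samples a group, and a change of the effect with time was not detectable.

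GJB6 was called as varying over time within treated utricles (F = 2.93, adjusted p = 0.0447), where 18.4% of rows were called. Treated means climbed from 206 ± 1.21 RPKM at 0 h to 768 ± 305 RPKM at 48 h (SD, n = 2 each) and stood at 308 ± 114 RPKM at 168 h (n = 3). This call was close to the threshold and was lost in 31 of 56 fits that each left out 1 sample. Within control utricles the variation over time did not pass the test (F = 2.13, adjusted p = 0.231), where 6.46% of rows were called. Control means ran from 405 ± 232 RPKM at 48 h (n = 2) down to 131 ± 19.4 RPKM at 144 h (n = 2).

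GJA1 behaved otherwise. Its level was well below that of GJB6, with a median ratio of GJB6 to GJA1 within a sample of 18.1 in treated and 6.92 in control samples. GJA1 changed over time in both groups. Treated samples had a lowest, median and highest level of 15.8, 26.1 and 49.4 RPKM, against 14.3, 31.1 and 41.3 RPKM in control samples. Over the 11 times its log2 difference was -0.10 ± 0.06 (adjusted p = 0.221).

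At 0 h the GJA1 level was 17.9 and 16.0 RPKM in treated samples and 16.3 and 14.3 RPKM in control samples. The 24 h values were 19.3, 15.8, 17.1 and 16.7 RPKM in treated samples and 18.3, 16.3, 15.7 and 21.1 RPKM in control samples. The groups overlapped at both times. The log2 difference of 0 and 24 h was 0.05 ± 0.14 (adjusted p = 0.873), and its sign turned under 2 other scalings of the samples.

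At 48 h GJA1 had 18.8 and 18.7 RPKM in treated samples and 18.4 and 31.4 RPKM in control samples. By 54 h it had 22.3 and 27.0 RPKM in treated samples and 36.8 and 35.1 RPKM in control samples. At 60 h the treated samples had 18.6 and 24.9 RPKM and the control samples 41.3 and 31.2 RPKM. Control replicate 2 of 48 h was already at the later level, and at 54 and 60 h both treated samples lay below both controls. With 2 samples a group such separation is a weak sign. The share of all rows that separate in this way was not counted, so it describes GJA1 alone, here and at later times.

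At 66 h the values were 25.1 and 27.2 RPKM in treated samples and 35.2 and 32.4 RPKM in control samples, again without overlap. At 72 h the treated samples had 32.2, 23.9 and 21.0 RPKM and the control samples 33.6, 27.4 and 31.4 RPKM. The groups overlapped once more at 72 h, through treated replicate 1.

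Over 48 to 72 h GJA1 was 1.37-fold lower in treated than in control utricles (log2 difference -0.45 ± 0.10, adjusted p = 0.000531). The treated sample was the lower one in 10 of 11 pairs, with a median ratio of 0.770, and the exception was replicate 1 of 48 h with a ratio of 1.02. No single sample decided this call, but without replicate 2 of every group it was lost (-0.36, adjusted p = 0.207). At 60 h, the time with the largest difference, it was -0.72 ± 0.22 (adjusted p = 0.0582, and 0.0367 with the block). GJA1 was called at 0 of 11 single times in the main fit without the block, with an adjusted p of 0.332 at 54 h and 0.146 at 168 h. Other settings without the block did call it. At 60 h it passed under trimmed-mean scaling (-0.76, adjusted p = 0.0348) and with repeat libraries kept apart (adjusted p = 0.0423). At 54 h it passed with sample weights (-0.54, adjusted p = 0.0333).

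At 96 h GJA1 had 32.6, 32.6 and 30.1 RPKM in treated samples and 33.7, 33.1 and 26.5 RPKM in control samples. At 120 h it had 42.1, 31.5 and 40.6 RPKM in treated samples and 37.3, 31.1 and 39.5 RPKM in control samples. The groups were intermingled at these times. At 144 h the treated samples had 43.3 and 31.1 RPKM and the control samples 29.3 and 26.9 RPKM. At 168 h the treated samples had 41.6, 49.4 and 34.7 RPKM and the control samples 23.7, 26.6 and 36.8 RPKM. The treated samples were above the controls without overlap at 144 h, and with 1 overlapping control at 168 h.

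Over 96 to 168 h the GJA1 log2 difference was 0.26 ± 0.10 (adjusted p = 0.064), and 0.0441 with the sample number as a block. The treated sample was the higher one in 8 of 11 pairs. Leaving out 1 sample brought it past the threshold in 4 of 22 fits, those that lacked replicate 3 of either group at 168 h or the treated replicate 2 at 120 or 144 h. The test of a change of the effect between times gave F = 3.41 (adjusted p = 0.113, and 0.0785 with the block). Fits that lacked the first control of 48 h (adjusted p = 0.0422) or the third control of 168 h (adjusted p = 0.0455) passed that test.

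**Figure D2:**
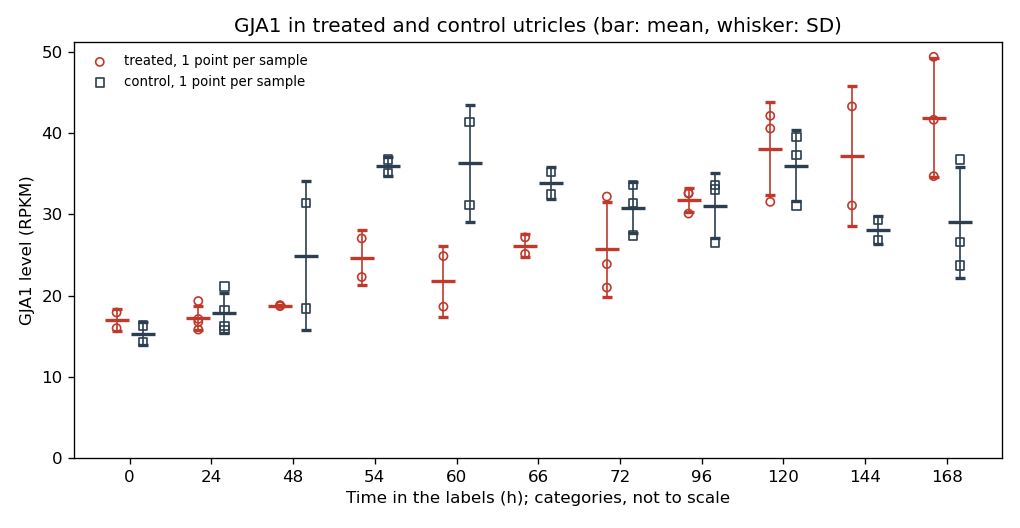
GJA1 level in RPKM at each of the 11 times (treated left of control; each point 1 sample, bars the mean, whiskers the SD). Treated samples stay at 27.2 RPKM or below from 0 to 66 h, while control samples are at 31.2 RPKM or above from 54 to 66 h.

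Within each group GJA1 changed over time, in treated utricles with F = 11.0 (adjusted p = 1.41e-06) and in control utricles with F = 8.51 (adjusted p = 6.57e-05). Treated means were 17.2 ± 1.49 RPKM at 24 h (SD, n = 4), 25.7 ± 5.82 RPKM at 72 h (n = 3) and 41.9 ± 7.35 RPKM at 168 h (n = 3). Control means were 17.9 ± 2.44 RPKM at 24 h (n = 4), 36.3 ± 7.18 RPKM at 60 h (n = 2) and 29.0 ± 6.85 RPKM at 168 h (n = 3). The treated mean was 31.8 ± 1.44 RPKM at 96 h (n = 3), a level the control mean had passed at 54 h (35.9 ± 1.17 RPKM, n = 2). No undissected utricles were analysed here.

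The ratio of GJB6 to GJA1 within a sample took both courses together. At 48 to 72 h it was 11.8 to 52.2 in treated samples (median 25.3) and 3.94 to 30.9 in control samples (median 6.91). At 96 to 168 h it was 3.88 to 26.2 in treated samples (median 8.97) and 1.12 to 10.2 in control samples (median 4.90). By time, the treated median was highest at 24 h (34.2) and 48 h (40.9). The log2 levels of GJB6 and GJA1 had a Pearson r of -0.349 over the 56 samples, -0.380 within treated and -0.421 within control samples (n = 28 each). This is a description, since the samples share groups and times.

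**Figure D3:**
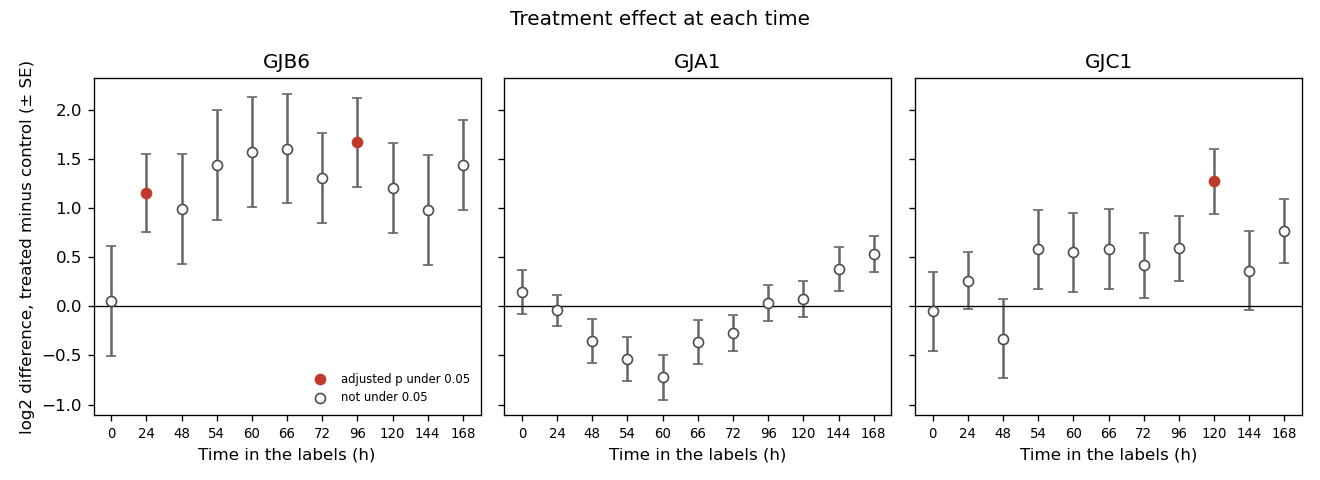
Log2 difference, treated minus control, at each of the 11 times for GJB6, GJA1 and GJC1 (points, with SE as whiskers; red where the adjusted p was under 0.05). GJB6 lies between 0.98 and 1.67 from 24 h on, GJA1 lies below 0 from 24 to 72 h and above 0 from 96 h, and GJC1 is called at 120 h.

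The other 3 members were at low levels. GJC1 encodes a connexin known from the heart and blood vessel walls of mammals, and its name is only a synonym of the symbol GJC3 in the RefSeq gene table of assembly GRCg7b, so its identity is less certain. GJC1 had a lowest, median and highest level of 1.13, 3.50 and 6.91 RPKM in treated samples and 0.961, 2.13 and 4.41 RPKM in control samples. It rose at 96 to 168 h (0.75 ± 0.17, adjusted p = 0.00213), with the treated sample higher in 11 of 11 pairs. Without replicate 2 of every group both GJC1 calls were lost, at 0.32 over the 11 times (adjusted p = 0.274) and 0.80 at 96 to 168 h (adjusted p = 0.105). No call was made at 48 to 72 h (0.36 ± 0.17, adjusted p = 0.161), where it was higher in 10 of 11 pairs, or at 0 and 24 h (0.11 ± 0.25, adjusted p = 0.851).

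At 120 h GJC1 had 6.91, 4.02 and 3.52 RPKM in treated samples and 0.961, 2.34 and 1.81 RPKM in control samples. This was its single called time (1.27 ± 0.33, adjusted p = 0.0231). The lowest control value came from a library of 2786632 alignments, and without it the difference was 1.0 (adjusted p = 0.207). The call was also lost without treated replicate 1 (1.0, adjusted p = 0.151) or treated replicate 2 (1.36, adjusted p = 0.055).

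Marker lists of other cell types were counted in the same window, in which 9.65% of all rows were higher and 7.11% lower. At 96 to 168 h 17 of 23 stromal markers were higher and 1 lower (median 0.86), 4 of 12 leukocyte markers were higher and 1 lower, 3 of 6 melanocyte markers and 2 of 9 Schwann cell and glia markers were higher, and 1 of 6 muscle markers was higher. Of 8 endothelial markers 1 was higher and 1 lower, and the muscle and endothelial counts are near the share over all rows. With the sample number as a block the counts were 20 higher and 1 lower for stromal, 6 and 1 for leukocyte and 3 and 1 for endothelial markers, with 3 melanocyte, 6 Schwann cell and glia and 2 muscle markers higher. The fit with the block called 2189 of all rows higher and 1572 lower in this window, against 1337 higher and 985 lower without it. Over all rows the median in that window was 0.04. The summed stromal level was 2522 to 4931 RPKM in treated samples and 2065 to 4615 RPKM in control samples. The part of these cells in the GJC1 and GJA1 values of late times was not tested.

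GJA3, a connexin best known from the lens of the eye, had a lowest, median and highest level of 0, 0.975 and 1.77 RPKM in treated samples and 0, 0.675 and 1.74 RPKM in control samples. Over the 11 times its difference was 0.22 ± 0.11 (adjusted p = 0.134), and at 0 and 24 h 0.63 ± 0.25 (adjusted p = 0.0848, and 0.0467 with the block). The difference over the 11 times passed without libraries under 5000000 alignments (0.25, adjusted p = 0.0321), with sample weights (0.24, adjusted p = 0.0436) or without treated replicate 1 of 168 h alone (0.26, adjusted p = 0.039), and that of 0 and 24 h passed with repeat libraries kept apart (0.0226) or without control replicate 3 of 24 h (0.0499). At 24 h it had 1.77, 0.654, 1.01 and 1.01 RPKM in treated samples and 0.383, 0, 0.623 and 0.223 RPKM in control samples, and this difference passed the test (1.01 ± 0.28, adjusted p = 0.0142). The highest treated and the lowest control value both came from libraries under 5000000 alignments, and without the libraries under that depth the difference was 0.62 (adjusted p = 0.246). Leaving out that treated sample (0.84, adjusted p = 0.0717) or that control (0.80, adjusted p = 0.0794) also ended the call. At 168 h GJA3 had 0, 0.826 and 0.924 RPKM in treated samples and 1.74, 1.14 and 1.73 RPKM in control samples (-1.04 ± 0.33, adjusted p = 0.109, and 0.0463 with the block). The 0 was from the shallowest library of the series.

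GJB1, a connexin of liver and of Schwann cells, had a lowest, median and highest level of 0, 1.14 and 3.13 RPKM in treated samples and 0, 0.959 and 5.92 RPKM in control samples. It passed no test, and its difference over the 11 times was 0.02 ± 0.21 (adjusted p = 0.959). The treated sample was higher in 11 and lower in 16 of 28 pairs, and the sign of the mean difference turned with the scaling. The highest control value, at 24 h, came from a library of 2046765 alignments.

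GJA4 reached at most 0.178 RPKM in any library, GJA5 0.443 RPKM and GJD2 0.257 RPKM. In the gene table of GRCg7b, GJB6, GJB2 and GJA3 are neighbours in that order on chromosome 1. GJB2 was not analysed here under that name, and how reads shared between close connexin copies were counted is not given in the sources used here.

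The table also described 6 rows as gap junction protein with no gene name, and 3 of them reached 1 RPKM in at least 2 libraries. They lie outside the rule and are named after their values were seen. E1C2J9_CHICK stood next to GJB6 in level, with a lowest, median and highest value of 97.2, 237 and 392.02 RPKM in treated samples and 70.0, 146 and 301 RPKM in control samples. It rose over the 11 times (0.58 ± 0.10, adjusted p = 8.92e-06), at 48 to 72 h (0.67 ± 0.15, adjusted p = 0.00122) and at 96 to 168 h (0.63 ± 0.15, adjusted p = 0.00312). The treated sample was higher in 25 of 28 pairs, and both pairs of 0 h were among the 3 in which it was lower.

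E1C2J9_CHICK followed GJB6 closely. The Pearson r of their log2 levels was 0.935 over 56 samples, 0.909 within treated samples, 0.919 within control samples (n = 28 each) and 0.904 after the 22 group means were taken away. Samples of 1 group that had more GJB6 thus also had more of this row. Samples share libraries and depth between both rows, and whether the rows share reads was not tested.

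F1NYX4_CHICK was lower in treated utricles, with a lowest, median and highest level of 0, 0.201 and 0.960 RPKM in treated samples and 0, 0.820 and 3.97 RPKM in control samples. No treated library reached 1 RPKM, so this row entered the tests only through the 13 control libraries that did. Its direction follows in part from that filter, and its tests are no independent support. F1NYX4_CHICK fell over the 11 times (-0.99 ± 0.16, adjusted p = 4.59e-06), at 0 and 24 h (-1.78 ± 0.35, adjusted p = 0.000414) and at 48 to 72 h (-0.95 ± 0.25, adjusted p = 0.0047). At 96 to 168 h it was at -0.63 ± 0.25 (adjusted p = 0.0787), and passed without libraries under 5000000 alignments (-0.72, adjusted p = 0.00488), with quantile normalization (0.0254) or with repeat libraries kept apart (0.0365), and without control replicate 1 of 120 h (0.0266) or treated replicate 3 of 168 h (0.0387). At 0 h F1NYX4_CHICK had 0.0540 and 0.102 RPKM in treated samples and 1.66 and 1.91 RPKM in control samples. Hair cell markers were lower too, 19 of 19 at 0 and 24 h and 19 of 19 at 48 to 72 h. Over all rows 5.98% and 10.2% were lower in these windows. The part of hair cells in the F1NYX4_CHICK values was not tested. E1BRZ1_CHICK passed no test (0.09 ± 0.15 over the 11 times, adjusted p = 0.72), with medians of 4.81 RPKM in treated samples and 4.82 RPKM in control samples.

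**Figure D4:**
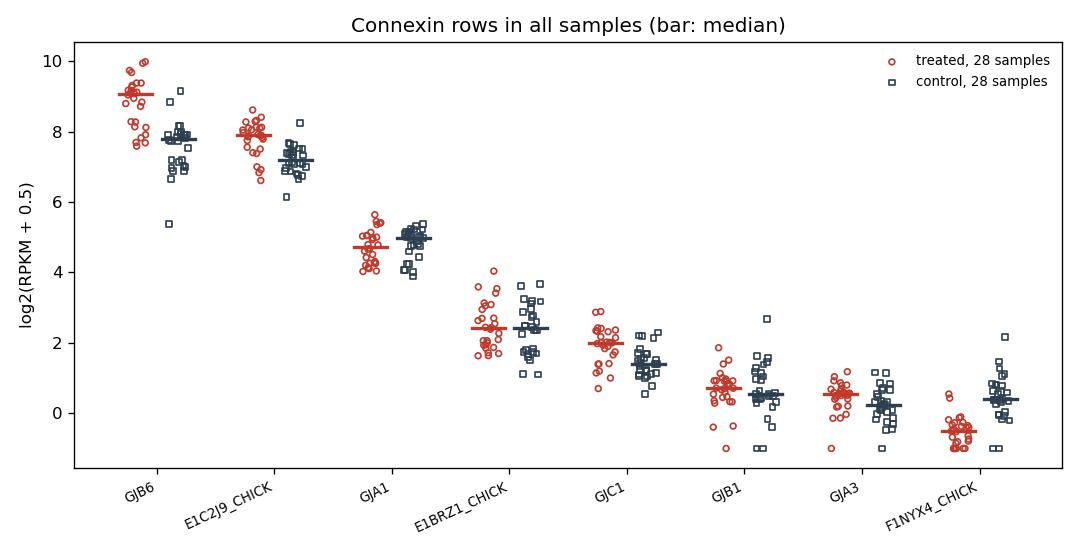
Level of the 5 members and of 3 unnamed gap junction rows as log2(RPKM + 0.5), with 28 treated samples left of 28 control samples for each row (points samples, bars medians). GJB6 and E1C2J9_CHICK are the most abundant, with medians of 534 and 237 RPKM in treated and 220.3 and 146 RPKM in control samples.

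In order of mean level over treated samples, GJB6 (507 ± 230 RPKM, SD, n = 28) was followed by GJA1 (27.6 ± 9.53 RPKM), GJC1 (3.51 ± 1.41 RPKM), GJB1 (1.2 ± 0.634 RPKM) and GJA3 (0.936 ± 0.367 RPKM). Control samples gave the same order, with GJB6 at 215 ± 106 RPKM, GJA1 at 28.6 ± 7.86 RPKM, GJC1 at 2.32 ± 0.893 RPKM, GJB1 at 1.33 ± 1.14 RPKM and GJA3 at 0.742 ± 0.427 RPKM. The order of the last 2 was not tested. By mean level GJB6 ranked 121st of the 13862 rows in treated samples and 252nd in control samples, and GJA1 2846th in treated and 2691st in control samples.

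Proteins that bind or regulate gap junctions, and pannexins, the connexin-like channel proteins that form no gap junctions in most tissues, gave no common direction. Of 25 tested genes 3 rose and 1 fell over the 11 times, where 18.5% of all rows were higher and 12.5% lower. Their median was 0.01, against 0.06 over all rows. The sign of this median turned under both other scalings. With the sample number as a block 6 rose and 1 fell, in a fit that called 3556 of all rows higher and 2237 lower. CTNNB1, which links cadherins to the cytoskeleton and carries Wnt signals, rose by 0.49 ± 0.06 (adjusted p = 3.35e-09), and PRKCD, a protein kinase C, by 0.55 ± 0.08 (adjusted p = 2.2e-07).

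NEDD4, a ubiquitin ligase that marks GJA1 for removal from the cell surface in mammalian cells, was the gene of this list that fell (-0.63 ± 0.08, adjusted p = 4.02e-08). Its median was 5.63 RPKM in treated and 9.14 RPKM in control samples. The difference was -0.89 ± 0.13 at 48 to 72 h (adjusted p = 6e-07), the window in which GJA1 was also lower than in control utricles. A link between these genes was not tested. The pannexins PANX1, PANX2 and PANX3 had differences of -0.09 ± 0.12, 0.05 ± 0.11 and 0.15 ± 0.11, and none passed the test (adjusted p of 0.632, 0.81 and 0.298). They are given for their kinship in function to connexins, with their values seen.

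Of 12 tested genes of potassium cycling in the inner ear, 2 rose and 2 fell over the 11 times, with a median of 0.08. These counts are near the shares over all rows, 18.5% higher and 12.5% lower. SLC1A3, a glutamate transporter of supporting cells, rose by 0.65 ± 0.09 (adjusted p = 1.17e-07), with medians of 249 RPKM in treated and 158 RPKM in control samples. ATP1B1, a beta subunit of the sodium-potassium pump, fell (-0.38 ± 0.07, adjusted p = 9.47e-05). KCNMA1, a calcium-activated potassium channel of hair cells, fell to a median of 0.926 RPKM in treated samples, against 3.92 RPKM in control samples (-1.56 ± 0.08, adjusted p = 1.39e-18).

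Connexin hemichannels and pannexins can release ATP, and receptors and enzymes for it were listed as well. Of 13 tested genes 3 rose and 2 fell over the 11 times, with a median of 0.12. The receptor channel gene P2RX7 (0.52 ± 0.10, adjusted p = 6.79e-05) and the genes of the ATP-splitting enzymes ENTPD1 (0.53 ± 0.09, adjusted p = 9.38e-06) and ENTPD2 (0.41 ± 0.08, adjusted p = 0.000148) rose. The receptor channel gene P2RX4 (-0.20 ± 0.06, adjusted p = 0.0073) and the adenosine receptor gene ADORA2A (-0.70 ± 0.14, adjusted p = 8.12e-05) fell. These counts are near the shares called over all rows.

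The median supporting cell marker moved less than GJB6. Of 24 tested markers 11 rose and 1 fell over the 11 times, with a median of 0.37, where 18.5% of all rows were higher and 12.5% lower. With the block 17 rose and 1 fell, in a fit that called 3556 of all rows higher and 2237 lower. The summed level of these markers was 1945 to 3250 RPKM in treated samples (median 2673) and 1135 to 3639 RPKM in control samples (median 2206). HEY1 and OTOGL, the most abundant markers of the list, had differences of 0.11 ± 0.09 (adjusted p = 0.388) and 0.26 ± 0.11 (adjusted p = 0.0595, and 0.00961 with the block). SOX2 was at 0.06 ± 0.14 (adjusted p = 0.809) and JAG1 at 0.17 ± 0.07 (adjusted p = 0.0624, and 0.0403 with the block). None of these named markers was among the 11 that rose without the block. At 48 to 72 h 7 of the 24 were higher and 1 lower (median 0.34), where 9.13% of all rows were higher and 10.2% lower. At 96 to 168 h 10 were higher and 0 lower (median 0.57), where 9.65% of all rows were higher and 7.11% lower. The list shares SLC1A3 with the potassium list and SOX10, among others, with the Schwann cell list. GJB6, at 1.22 over the 11 times, stood above the marker median of 0.37. That sets 1 gene against a median and does not compare it with the 11 markers that rose. The part of a larger share of supporting cells in its value was not tested.

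Cell division genes rose as well, in a comparison where 18.5% of all rows were higher. All 11 tested genes rose over the 11 times (median 1.32), with TOP2A, a topoisomerase of dividing cells, at 1.32 ± 0.10 (adjusted p = 2.92e-14), PCNA at 0.44 ± 0.06 (adjusted p = 4.94e-07) and RRM2 at 1.41 ± 0.14 (adjusted p = 7.3e-11). Their summed level at 48 to 72 h was 283 to 708 RPKM in treated samples and 76.8 to 225 RPKM in control samples. At 96 to 168 h it was 85.3 to 246 RPKM in treated samples (median 116) and 66.6 to 97.2 RPKM in control samples (median 86.1). The groups overlapped at 168 h, with 94.8, 85.3 and 95.2 RPKM in treated and 97.2, 66.6 and 71.4 RPKM in control samples. The GJB6 difference of that time was 1.44 ± 0.46, short of the threshold without the block. It ran from 0.75 to 2.02 when 1 sample was left out, and was lowest without control replicate 3. That control had 41.3 RPKM of GJB6, against 241 and 125 RPKM in the other controls of 168 h. Its summed hair cell markers were also low, at 535 RPKM against 1241 and 1696 RPKM. Of the 11 genes, 11 were higher at 48 to 72 h (median difference 1.95) and 9 at 96 to 168 h (median 1.13). The part of dividing cells in the GJB6 values was not tested.

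Over the 56 samples the log2 level of GJB6 had an r of 0.838 with the log2 summed level of the division genes, 0.815 within treated and 0.706 within control samples (n = 28 each). With the summed supporting cell markers the r was 0.650 over all samples, 0.232 within treated and 0.642 within control samples. With hair cell markers it was -0.581 over all samples, -0.470 within treated and 0.748 within control samples, so that the pooled value does not describe the control group. GJA1 had an r of 0.806 with the hair cell markers within treated samples, the highest there of all lists, and -0.507 within control samples. Some other lists kept 1 sign in both groups. The r of GJA1 was -0.591 within treated and -0.540 within control samples with the division genes. It was -0.749 and -0.512 with the gap junction partners and 0.659 and 0.388 with the melanocyte markers. In treated samples both GJA1 and the hair cell markers were higher at later times, and all these values share time, library and depth.

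**Figure D5:**
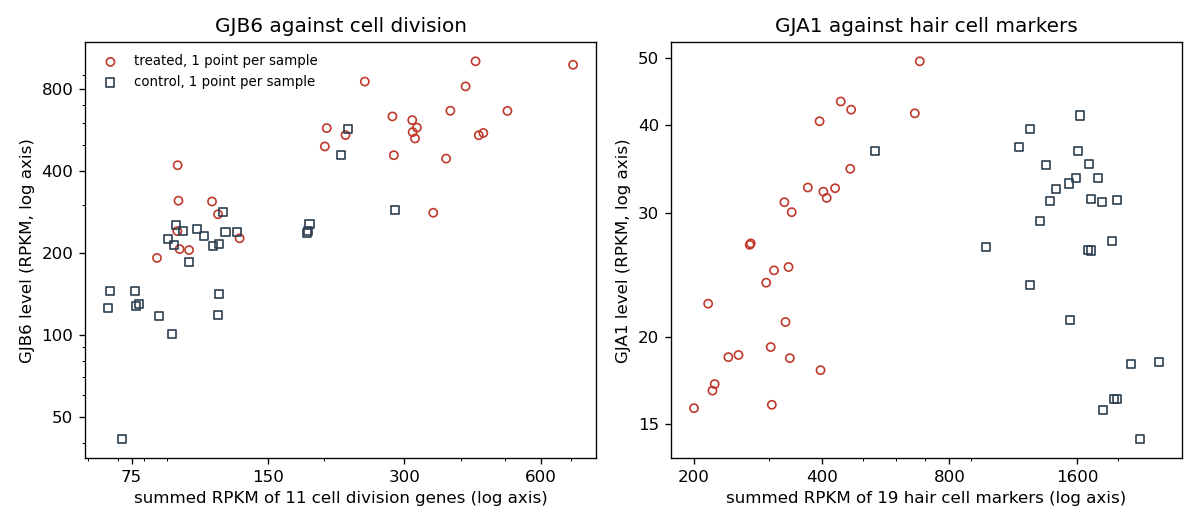
Level of GJB6 against the summed level of 11 cell division genes, and of GJA1 against the summed level of 19 hair cell markers, in RPKM on log axes (each point 1 sample, 28 treated and 28 control). GJB6 rises with the division genes in both groups, with r of 0.815 in treated and 0.706 in control samples, and GJA1 runs in opposite directions with the hair cell markers, with r of 0.806 in treated and -0.507 in control samples.

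The remaining cell type lists moved as follows over the 11 times, where 18.5% of all rows were higher and 12.5% lower. Of 23 stromal markers 16 rose and 1 fell, of 12 leukocyte markers 6 rose and 2 fell, of 9 Schwann cell and glia markers 3 rose, of 6 melanocyte markers 3 rose, and of 6 muscle markers 2 rose. Of 8 endothelial markers 2 fell (and 1 rose with the block), of 5 neuron markers 1 rose and 2 fell, of 8 markers of ion-transporting epithelium 1 fell (2 with the block), and neither of 2 erythroid markers was called. The endothelial, muscle and ion-transporting epithelium counts are near the shares over all rows. The fit with the block called 3556 of all rows higher and 2237 lower. Of the defining markers, COL1A1 of fibroblasts had medians of 185 RPKM in treated and 83.7 RPKM in control samples (0.73 ± 0.37, adjusted p = 0.131, and 0.000742 with the block), while PTPRC of leukocytes, at 0.529 RPKM in treated and 0.471 RPKM in control samples, and CDH5 of endothelium, at 0.379 RPKM in treated and 0.271 RPKM in control samples, were at low levels.

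Among 10000 rows with a gene name and a mean of at least 1 RPKM, the 5 most like GJB6 by Pearson r of log2 levels over the 56 samples were RAB4A (0.905), TUBGCP3 (0.901), ARHGAP19 (0.889), MMS22L (0.887) and BARD1 (0.880). The choice depended on the measure: 2 of these 5 were among the 5 highest by Spearman rho and 3 by Pearson r over the 22 group means. The values within treated samples were 0.789 to 0.858 and those within control samples 0.750 to 0.863. All 5 rose over the 11 times, with differences of 0.52 to 1.15, where 18.5% of all rows were higher. They were chosen for likeness to GJB6 over samples of both groups, so their direction follows in part from the choice. RAB4A, which acts in the recycling of endosomes, had medians of 38.7 RPKM in treated and 26.2 RPKM in control samples, and TUBGCP3 encodes a component of the gamma-tubulin complex that nucleates microtubules. BARD1, the partner of BRCA1 in DNA repair, had medians of 2.19 RPKM in treated and 0.766 RPKM in control samples.

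The 5 rows most like GJA1 were CREB3L1 (0.889), WIPI1 (0.853), STC2 (0.853), DDR2 (0.837) and PSPH (0.834), of which 2 were among the 5 highest by Spearman rho and 3 by group means. After the group means were taken away the r of these rows with GJA1 was 0.365 to 0.614, against 0.617 to 0.806 for the rows most like GJB6. CREB3L1, a transcription factor of the endoplasmic reticulum stress response and of collagen secretion, had medians of 8.25 RPKM in treated and 29.5 RPKM in control samples and fell at 48 to 72 h (-1.90 ± 0.21, adjusted p = 2.1e-09). WIPI1, an autophagy gene, DDR2, a collagen receptor, STC2, a secreted glycoprotein, and PSPH, the last enzyme of serine synthesis, fell in that window too, by 0.65, 1.38, 0.61 and 1.60 on the log2 scale. In that window 10.2% of all rows were lower. These rows were chosen for likeness to GJA1 over samples of both groups, so their direction follows in part from the choice.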

How the data were processed

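RNA of chicken utricles was sequenced in 60 libraries. TopHat 1.4.0 and Partek 6.6 were used per the submitters' processing notes; genome build, annotation and counting rule were not given in the sources used here. The deposited table holds 1 value per gene and library with no unit named. The authors' values were taken as RPKM because, of 1037 low rows checked, 34.7% lay on whole steps (within 0.05 of a step in at least 90% of libraries) after multiplication by the alignments per library, against 2.99% without it. A further 2 columns, whose names fitted no sample title, were left aside.

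Repeat libraries of replicate 1 at 0 h and replicate 2 at 120 h were averaged in both groups, leaving 56 samples. The 13862 of 17684 rows that reached 1 RPKM in 2 or more libraries were tested as log2(RPKM + 0.5) with limma 3.58.1 in R 4.3.3 (22 group means, 34 residual degrees of freedom, intensity trend). Fold changes are on that scale, which understates changes of low genes. P-values were adjusted by Benjamini-Hochberg over all rows for each comparison, and rows under 0.05 were called; every adjusted p in the text is of this kind. The fit was tested on simulated data. Same-numbered treated and control samples mostly deviated together (r of 0.117 to 0.710 in the 16 pairs at times with 3 or 4 pairs, 26 of 28 pairs above 0.1), so the numbers were taken to pair samples, and a fit with the number as a block is given where it changes a call. At times with 2 pairs both pairs have the same r by construction, so the 28 are not all separate values. The r at 60 h was 0.0754, and treated replicate 1 of 24 h was closer to another control than to its own.

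The members and the gene lists were chosen with earlier results of these data known. Named genes were the members, the called genes with the largest rises and falls (up to 4 each) of the gap junction partner, potassium and purinergic lists, the 2 most abundant and a few defining genes of the cell type lists a result is set beside, and the 5 rows most like GJB6 and GJA1. Alternatives were other pseudocounts, filters, scalings, weights and variance settings, the block, repeat libraries kept apart, libraries under 5000000 alignments left out, and each sample or replicate number left out. SE is the standard error of the fit. Some single genes of the lists are counted but not reported here by name.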

Additional observations from a re-analysis of the deposited data

Results flagged for a closer look

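In the 24 h treated group, 3 rows had a highest sample standing apart from the other samples, of 16 such groups of 4 samples examined. GJB6 had 1013 RPKM in replicate 2, against 542 to 616 RPKM in the other treated samples, and without that sample the 24 h difference was 0.95. GJC1 had 4.82 RPKM in replicate 1, a library of 3447741 alignments. F1NYX4_CHICK had 0.0712 RPKM in replicate 4 and was listed at 0 in the other treated samples. With the others at 0 any value above 0 is flagged, so this flag carries no information about that sample. Chance alone flags a small share of such groups.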

How the results depend on the processing

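GJB6 over the 11 times, at 48 to 72 h and at 96 to 168 h kept its call under every alternative run (log2 differences of 1.14 to 1.32, 1.26 to 1.51 and 1.11 to 1.47 when samples were left out). With the replicate block, which pairs same-numbered samples, the 0 and 24 h difference of GJB6 (0.60, adjusted p = 0.0376) and the 96 to 168 h difference of GJA1 (0.26, adjusted p = 0.0441) passed. Keeping repeat libraries apart brought that GJA1 value (0.25) and the GJA1 change of effect over time (F = 3.66) past the threshold. The GJB6 variation over time in treated utricles missed it with no filter (F = 2.78), trimmed-mean scaling (F = 2.82) and no trend (F = 2.86). The block called 3201 rows at 0 and 24 h, 3761 at 96 to 168 h and 578 for a change of effect over time. Repeat libraries kept apart called 3142 at 0 and 24 h, 568 for a change over time, 1905 over time in control and 4147 in treated utricles. Sample weights, whose estimation stopped before converging, called 4120 at 48 to 72 h and 322, 1843 and 6269 in those F tests. The cause of these moves was not tested.

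Differences that turned sign were all short of the threshold. Under trimmed-mean scaling they were GJB6 at 0 h (-0.026), GJA1 at 0 and 24 h (-0.053), GJB1 over the 11 times (-0.011) and E1BRZ1_CHICK at 48 to 72 h (-0.031). Quantile normalization turned GJA1 at 0 and 24 h (-0.046) and GJB1 at 48 to 72 h (0.013). Repeat libraries kept apart turned GJB1 over the 11 times (-0.012). Without libraries under 5000000 alignments GJB1 over the 11 times was -0.017, GJA3 at 96 to 168 h 0.18 and GJC1 at 0 and 24 h -0.0019. Sample weights turned GJA1 at 96 h (-0.042), GJA3 at 96 to 168 h (0.060), GJB1 over the 11 times (-0.0059), GJC1 at 0 and 24 h (-0.012) and E1BRZ1_CHICK over the 11 times (-0.030) and at 48 to 72 h (-0.060).

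When single samples or replicate numbers were left out, F for GJB6 over time in treated utricles was 2.05 to 3.74, for the GJA1 change of effect 1.47 to 4.46 and for GJA1 over time in control utricles 5.02 to 10.3. GJB6 ran from -0.048 to 0.15 at 0 h. GJA1 ran from -0.53 to -0.36 at 48 to 72 h, 0.18 to 0.32 at 96 to 168 h, -0.10 to 0.052 at 24 h, -0.73 to 0.032 at 48 h, -0.071 to 0.10 at 96 h and -0.023 to 0.21 at 120 h. GJA3 ran from -0.15 to 0.14 at 96 to 168 h, and GJB1 from -0.066 to 0.10 over the 11 times and -0.26 to 0.13 at 48 to 72 h. GJC1 ran from -0.032 to 0.20 at 0 and 24 h. E1BRZ1_CHICK ran from -0.089 to 0.18 over the 11 times, -0.17 to 0.13 at 48 to 72 h and -0.26 to 0.10 at 96 to 168 h. Rows called ran from 1781 to 4464 over the 11 times, 435 to 1939 at 0 and 24 h, 831 to 2683 at 48 to 72 h, 578 to 2446 at 96 to 168 h, 0 to 305 for a change of effect, 35 to 1132 over time in control and 288 to 3047 in treated utricles. The lowest counts came from fits without a whole replicate number, which hold fewer samples. Depth limits GJA3, GJB1 and F1NYX4_CHICK most, since their levels are close to what single reads are worth in the shallow libraries.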
